A study of Loxodonta africana with 12 samples.

Results

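The genes described here are the ZNF zinc finger genes of African elephant (Loxodonta africana) blood: every gene whose symbol is ZNF followed by a digit and whose reads, added over all 12 libraries, came to at least 600. Of 16406 genes in the deposited tables, 164 had such a symbol and 138 reached 600 reads. The other 26 had sums of 66 to 573 reads and are not members. The members were chosen by this read sum, which uses the same libraries as the comparisons but not their direction. Just inside the threshold lay ZNF358 with 600 reads, ZNF786 with 695 and ZNF503 with 697, and just outside it lay ZNF215 with 573, ZNF467 with 561 and ZNF346 with 556.

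RNA was sequenced from blood that had received 2 Gy of radiation or no treatment, at time points of 5 h and 24 h. The groups were irradiated at 5 h, untreated at 5 h, irradiated at 24 h and untreated at 24 h, with 3 libraries each. The labels give the tissue as blood and state no genotype, age, number of animals or culture condition. They number the libraries 1 to 3 within a group and do not say whether the numbered libraries are separate animals, draws or cultures. The spread that the p-values rest on may therefore be technical.

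Most ZNF genes encode DNA-binding proteins whose zinc fingers, each held in shape by a zinc ion bound to 2 cysteines and 2 histidines, stand in a row and together read a stretch of DNA. In many of them a KRAB domain at one end recruits TRIM28 and, through it, the histone methyltransferase SETDB1 and HP1 proteins, which silence chromatin, above all at transposable elements. Others carry a SCAN domain that pairs them with each other, or have left DNA binding for roles in RNA processing, translation and mitosis. A few are tied to the p53 pathway or to repair of DNA breaks, which is what radiation calls on. The roles given below are those known from the human or mouse proteins.

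Total counts per library ranged from 31129422 to 38138163 in irradiated and 31059389 to 35964159 in untreated blood at 5 h, and from 18022475 to 23805619 in irradiated and 22924260 to 37356501 in untreated blood at 24 h. The first principal component of the libraries, with 65.9% of the variance, put all 5 h libraries on one side of all 24 h libraries. All 7 p53 target genes used as a check of the treatment were called higher in irradiated libraries at 5 h and again at 24 h. White blood cell markers were present, while the 3 erythroid markers measured summed to 2.44 to 19.6 CPM (read counts scaled to a common library size by edgeR) in any library, and the haemoglobin genes HBA1 and HBB were not analysed here. Summed B cell markers came to 58.9 to 78.3 CPM in irradiated libraries at 24 h, against 398 to 488 CPM in untreated ones, and 9 of 9 were called lower. At 5 h the same sum was 186 to 244 CPM in irradiated and 294 to 357 CPM in untreated libraries, with 1 of 9 called. At 24 h, 6 of 7 NK cell markers and 2 of 9 T cell markers were also called lower, while 2 of 5 monocyte, 4 of 7 neutrophil and 2 of 5 platelet markers were called higher. Of 4 dendritic cell markers 2 were called lower at 24 h and 0 at 5 h in the 12-library fit, with a median log2 fold change of -1.997 at 24 h and -0.47 at 5 h. The part of these shifts in the ZNF results was not tested, and in bulk RNA fewer cells of a type and less RNA per cell cannot be told apart.

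ZNF reads made up under 1% of the raw counts of each library, and a larger share in every 24 h library than in any 5 h library. They took 0.553% ± 0.013 of the counts in irradiated and 0.533% ± 0.012 in untreated libraries at 5 h, and 0.609% ± 0.036 in irradiated and 0.627% ± 0.030 in untreated libraries at 24 h (SD, n = 3 each). Summed over the members, CPM ran the other way, at 6094 to 6559 in 5 h libraries and 5017 to 5599 in 24 h libraries. The direction over time thus depended on the scaling. Per length, the median member stood at 12.01 RPKM (CPM per kilobase of exon) in irradiated and 11.2 RPKM in untreated blood at 5 h. At 24 h it stood at 10.2 RPKM in irradiated and 10.8 RPKM in untreated blood. The median over all 15200 genes tested was 11.4, 11.6, 11.96 and 12.6 RPKM in the same order of groups.

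The most abundant member per length was ZNF207 (BuGZ), which helps chromosomes attach to the spindle, at a mean of 228 RPKM over the 12 libraries. Next came ZNF24, a SCAN domain factor, at 100.2 RPKM, and ZNF638, a nuclear RNA-binding protein that silences unintegrated viral DNA, at 98.1 RPKM. ZNF263, which carries both a SCAN and a KRAB domain, followed at 91.7 RPKM and the very short ZNF706 at 81.9 RPKM. The lowest member, ZNF462, averaged 0.723 RPKM. In the 12-library fit none of these 5 was called as different between irradiated and untreated blood at either time, with log2 fold changes between -0.06 and 0.17. In the 5 h fit with the replicate block ZNF263 passed as higher, at 0.16 ± 0.04 (SE, adjusted p = 0.011).

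In the fit to all libraries together, 1 ZNF gene was called as different between irradiated and untreated blood at 5 h. A fit to the 5 h libraries alone, comparing equally numbered ones, called 14 members higher and 5 lower, as given below. ZNF608, the close relative of ZNF609, was 3.37-fold higher in irradiated blood and stood above every other member. It was called in edgeR's quasi-likelihood test, in which a gene is called where its p-value, adjusted over all genes tested by Benjamini-Hochberg, is below 0.05. ZNF608 (ENSLAFG00000015124, scaffold 1, 37872980 to 37983633, plus strand, assembly L_africana_Jul_2009) had 131.5, 116.4 and 130.3 CPM in irradiated libraries at 5 h, against 38.8, 30.7 and 42.6 CPM in untreated ones. The lowest irradiated library lay far above the highest untreated one, and the log2 fold change was 1.75 ± 0.12 (SE, adjusted p = 2.8e-06). Of the genes around it, GRAMD3 on one side and CSNK1G3 on the other lay over a megabase away by their starts and were not called at either time, with adjusted p-values between 0.13 and 0.99996.

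The other 137 members did not pass the test at 5 h. The count was 1 higher and 0 lower of 138, where 0.743% of all genes tested were called higher and 0.355% lower. At an unadjusted p below 0.05 there were 3 members higher and 3 lower, and 622 and 635 of all 15200 genes tested. DESeq2 also called 1 member higher and 0 lower. The median log2 fold change of the members was 0.017, against 0.016 over all genes tested. After ZNF608 the smallest p-values belonged to ZNF22, with a log2 fold change of -0.25 ± 0.08 (adjusted p = 0.28), and to ZNF326, at 0.27 ± 0.11 (adjusted p = 0.47). ZNF384 followed at 0.24 ± 0.10 (adjusted p = 0.48) and ZNF641 at -0.39 ± 0.17 (adjusted p = 0.54).

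With the 5 h libraries alone and the replicate block, which compares equally numbered libraries, many more genes passed at 5 h, among ZNF genes as among all others. Equally numbered libraries at 5 h deviated together, so this fit is given beside the one above. It called 14 members higher and 5 lower, where it called 10.6% of all genes higher and 9.92% lower. ZNF608 stayed at a log2 fold change of 1.75 ± 0.06 (adjusted p = 7e-13). The other 18 changes were small, between -0.40 and 0.55. Among them ZNF703, a transcriptional corepressor, was higher by 0.55 ± 0.09 (adjusted p = 0.00024), ZNF326, a subunit of the DBIRD complex that couples transcript elongation to splicing, by 0.25 ± 0.04 (adjusted p = 0.00035), and ZNF384, which has been linked to the joining of broken DNA ends, by 0.23 ± 0.05 (adjusted p = 0.0025). Lower were ZNF22, at -0.26 ± 0.06 (adjusted p = 0.0033), and ZNF710, at -0.28 ± 0.06 (adjusted p = 0.0036). ZNF703 and ZNF710 are named here after their values were seen.

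**Figure D1:**
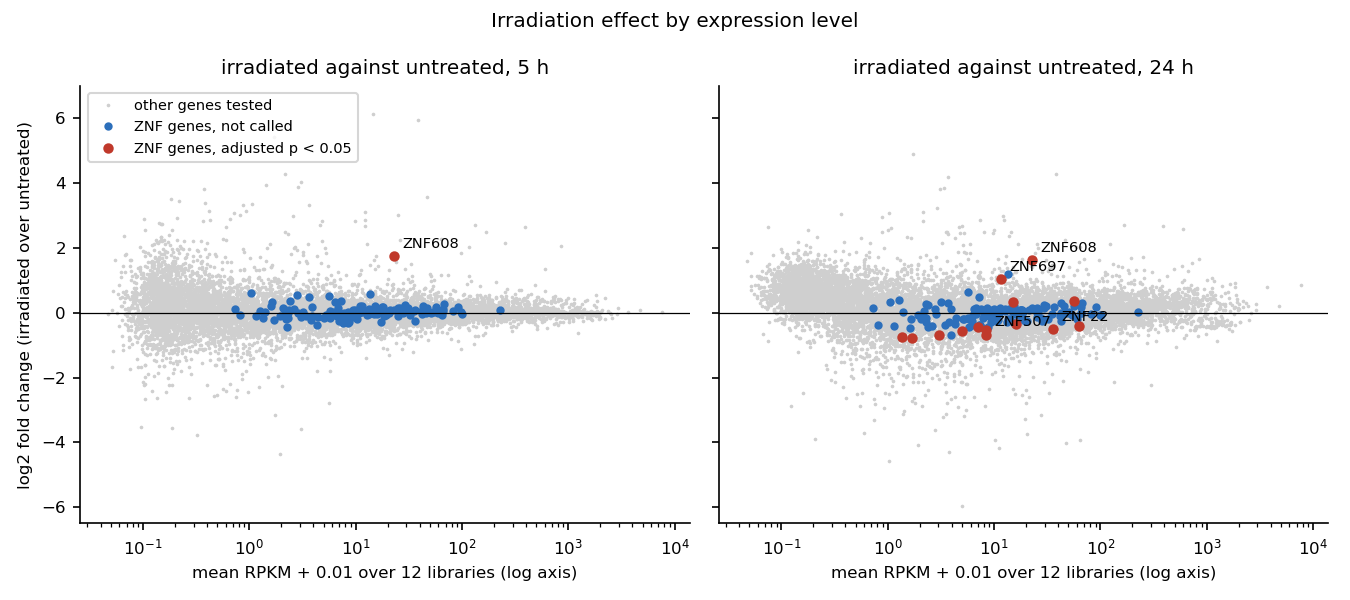
Each point is a gene, with its mean RPKM over 12 libraries plus 0.01 on a log axis and its log2 fold change (irradiated over untreated) on the y axis, at 5 h on the left and 24 h on the right. Grey points are other genes tested, blue points ZNF genes not called and red points ZNF genes with adjusted p below 0.05 (1 at 5 h, 14 at 24 h); ZNF608 lies near 1.75 and 1.63, above all other ZNF genes in both panels.

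At 24 h ZNF608 was still 3.10-fold higher in irradiated blood. A further 3 ZNF genes passed as higher, namely ZNF697, ZNF274 and ZNF862, and 10 passed as lower, namely ZNF571, ZNF606, ZNF48, ZNF507, ZNF354C, ZNF32, ZNF22, ZNF382, ZNF146 and ZNF451. Apart from ZNF608 and ZNF697 the changes were under 2-fold. In none of the 14 did the irradiated and untreated libraries overlap in CPM. These genes were picked by p-values from the same libraries, so the lack of overlap gives the calls no further support. The 4 and 10 calls stand against 3.34% of all genes called higher and 7.64% called lower, and the share of members called in either direction was 10.1%, where it was 11% of all genes. The median log2 fold change was -0.03 over the members and 0.03 over all genes tested.

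ZNF608 had 206.7, 183.7 and 181.2 CPM in irradiated libraries at 24 h, against 58.7, 62.7 and 62.9 CPM in untreated ones. The log2 fold change was 1.63 ± 0.12 (adjusted p = 3.2e-06), and again no library of one group came near the other. The difference of its effects, 24 h minus 5 h, was -0.12 ± 0.16 and did not pass the test (adjusted p = 0.93).

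ZNF697 (ENSLAFG00000032116, scaffold 11, 66469790 to 66473125, minus strand) had 14.2, 12.2 and 12.03 CPM in irradiated libraries at 24 h, against 3.75, 8.61 and 6.39 CPM in untreated ones. At 5 h it had 32.0, 27.8 and 26.0 CPM in irradiated and 28.6, 27.8 and 27.5 CPM in untreated libraries. All of its 24 h libraries thus lay below its 5 h libraries, and the untreated 24 h ones were the lowest. The 24 h log2 fold change was 1.03 ± 0.22 (adjusted p = 0.0091), with an adjusted p of 0.069 when only the 24 h libraries were fitted.

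ZNF274, a KRAB protein that brings SETDB1 to the ends of other ZNF genes, had 53.1, 50.6 and 57.2 CPM in irradiated libraries at 24 h, against 36.8, 46.9 and 40.0 CPM in untreated ones. The log2 fold change was 0.38 ± 0.11 (adjusted p = 0.040), and the call was lost without any one of the libraries but untreated 24 h replicate 2, 11 in all, with adjusted p-values of up to 0.15. ZNF862 had 66.2, 73.1 and 74.6 CPM in irradiated libraries at 24 h, against 54.1, 56.1 and 61.0 CPM in untreated ones. Its log2 fold change of 0.32 ± 0.09 (adjusted p = 0.037) was likewise lost without any one library but irradiated 24 h replicate 1.

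Among the genes that were lower, ZNF507, ZNF22 and ZNF146 also passed when the 24 h libraries were fitted alone. ZNF507 (ENSLAFG00000018078, scaffold 43, 10449715 to 10474523, minus strand) had 15.2, 18.1 and 19.9 CPM in irradiated libraries at 24 h, against 27.9, 26.7 and 30.0 CPM in untreated ones. The untreated libraries lay at or above 26.7 CPM and the irradiated ones below 20 CPM, for a log2 fold change of -0.67 ± 0.12 (adjusted p = 0.0036).

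ZNF22 (ENSLAFG00000000878, scaffold 10, 64936412 to 64937089, plus strand) had 8.93, 9.80 and 10.4 CPM in irradiated libraries at 24 h, against 14.2, 13.3 and 14.1 CPM in untreated ones. At 5 h it had 35.0, 33.5 and 33.6 CPM in irradiated libraries, against 39.7, 39.6 and 41.8 CPM in untreated ones, so that the groups were apart at both times. The log2 fold change at 24 h was -0.51 ± 0.09 (adjusted p = 0.0025).

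ZNF146, also called OZF, a protein made of little else than zinc fingers, had 32.3, 31.1 and 27.8 CPM in irradiated libraries at 24 h, against 39.9, 40.7 and 40.5 CPM in untreated ones (ENSLAFG00000002096, scaffold 141, 1054722 to 1055600, minus strand). At 5 h its levels overlapped, with 73.9, 76.9 and 76.0 CPM in irradiated and 72.1, 76.9 and 79.2 CPM in untreated libraries. The log2 fold change was -0.41 ± 0.08 at 24 h (adjusted p = 0.0057) and -0.01 ± 0.08 at 5 h (adjusted p = 0.99996).

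ZNF451, a ligase that builds SUMO chains, had 43.1, 48.4 and 43.2 CPM in irradiated libraries at 24 h, against 57.6, 56.0 and 58.2 CPM in untreated ones, with a log2 fold change of -0.35 ± 0.08 (adjusted p = 0.010, or 0.064 in the fit to the 24 h libraries alone). The remaining 6 genes that were lower had log2 fold changes from -0.77 for ZNF571 to -0.43 for ZNF382, with adjusted p-values of 0.026 to 0.039. ZNF571 was at 2.44, 3.13 and 2.89 CPM in irradiated libraries and 5.41, 4.04 and 4.96 CPM in untreated ones. ZNF606 had 1.98 to 2.28 CPM in irradiated and 2.77 to 4.12 CPM in untreated libraries, and ZNF382, a KRAB repressor, 8.93 to 11.6 CPM and 13.6 to 14.8 CPM in the same order. The calls of these 6 genes rested on single libraries. Each was lost without irradiated 24 h replicate 1 and also without untreated 24 h replicate 3, and in all without any one of 3 to 7 libraries, with adjusted p-values between 0.050 and 0.12. None of the 6 passed in the fit to the 24 h libraries alone.

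Fitted alone, the 24 h libraries called 1 member higher and 3 lower, ZNF608 and ZNF507, ZNF22 and ZNF146, where that fit called 1.8% of all genes higher and 4.94% lower. Without untreated 24 h replicate 3 the 12-library fit called 4 members lower, and without irradiated 24 h replicate 1 or untreated 24 h replicate 1 it called 5. Without any one library it called 2 or 3 members higher in place of 4. With library totals as the only scaling, the split at 24 h was 3 higher and 17 lower. That scaling called 421 of all 15200 genes higher and 1875 lower. With upper quartile scaling the split was 5 higher and 7 lower, against 620 and 1059 of all genes. ZNF703 was not called although its fold change was larger than that of ZNF697. It had 15.3, 31.2 and 74.1 CPM in irradiated libraries at 24 h, against 10.01, 9.62 and 32.9 CPM in untreated ones, so that replicate 3 was the highest in both groups (log2 fold change 1.18, adjusted p = 0.20).

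**Figure D2:**
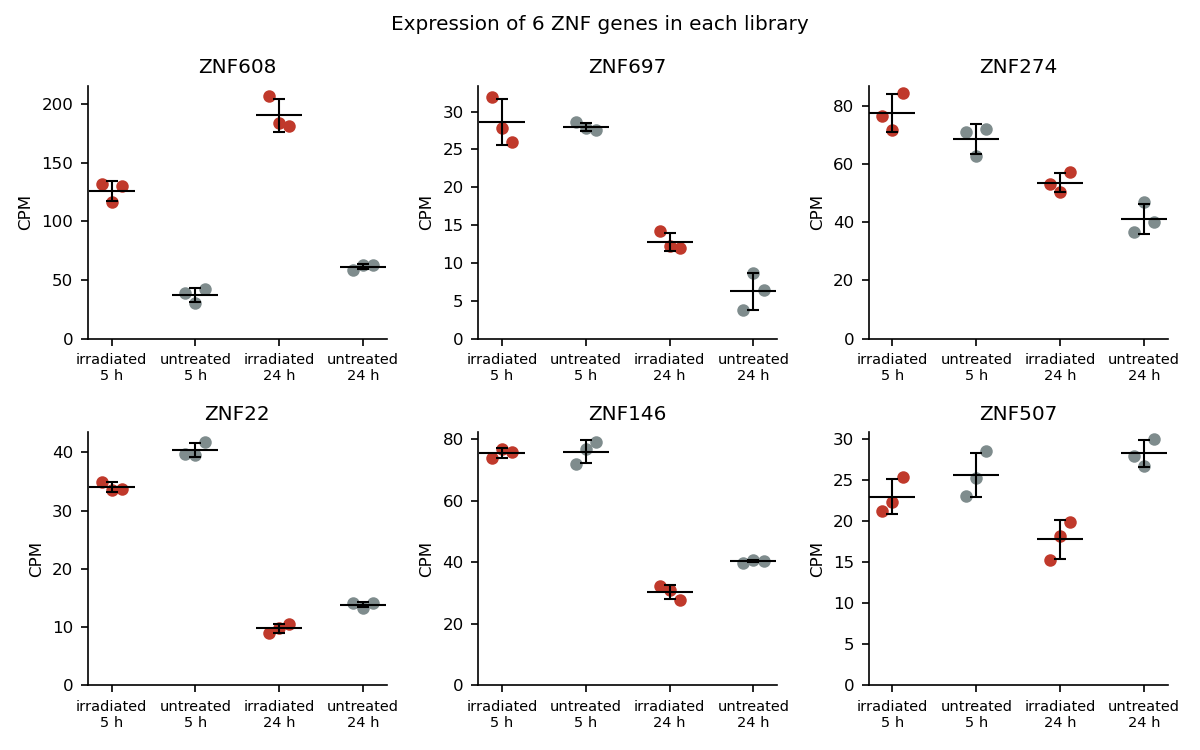
CPM of 6 ZNF genes in each of the 12 libraries (points), with the group mean and SD (black lines, n = 3). Irradiated libraries are red and untreated ones grey; ZNF608 is higher in irradiated libraries at both times, while ZNF697, ZNF274, ZNF146 and ZNF507 were called at 24 h, and ZNF22 is lower in irradiated libraries at both times with the call at 24 h.

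The irradiation effects at the 2 times were set against each other gene by gene. They share no library. Across the 138 members Pearson's r was 0.70 and Spearman's rho 0.59, and without ZNF608 they were 0.61 and 0.58. Across all 15200 genes tested r was 0.44 and rho 0.43. The sign was the same at both times for 96 members, or 69.6%, and for 66.6% of all genes. These values describe the genes, which are not independent replicates and share the scaling of the libraries. Only members had to reach the read threshold, so the values for members and for all genes are not like for like. Whether ZNF effects agreed better between the times than those of equally abundant genes was not tested.

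No ZNF gene passed the test of the difference between the 24 h and the 5 h effect, whether with edgeR or with DESeq2. The background was 0.125% of all genes called with a more positive effect at 24 h and 0.757% with a more negative one. At an unadjusted p below 0.05 there were 2 and 12 of the 138 members, and 432 and 1080 of all 15200 genes tested. The smallest p-values were those of ZNF146, with a difference of -0.40 ± 0.11 on the log2 scale (adjusted p = 0.15), and of ZNF697, with 0.995 ± 0.30 (adjusted p = 0.18). Without untreated 24 h replicate 2 the difference of ZNF697 passed (adjusted p = 0.033). ZNF507 at -0.52 ± 0.17, ZNF451 at -0.31 ± 0.11 and ZNF639 at -0.39 ± 0.14 came next, with adjusted p-values of 0.24 to 0.31. A gene called at 24 h and not at 5 h is therefore not shown to respond differently at the 2 times.

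ZNF genes with known ties to p53 did not pass the irradiation test at either time. Of 10 such genes listed, 4 are members. ZNF385A (HZF), a p53 target in human cells that steers p53 towards cell cycle arrest, had 3.16, 3.80 and 2.27 CPM in irradiated libraries at 5 h and 1.86, 3.38 and 1.85 CPM in untreated ones. The groups overlapped, and the log2 fold change was 0.37 ± 0.27 (adjusted p = 0.88). ZNF365, another p53 target, which guards telomeres, had log2 fold changes of 0.13 ± 0.21 at 5 h and -0.19 ± 0.20 at 24 h. ZNF668, which stabilises p53, was at -0.07 ± 0.25 and 0.11 ± 0.26, and ZNF148 (ZBP-89), a p53-binding factor, at 0.05 ± 0.07 and -0.04 ± 0.07, with adjusted p-values of 0.60 to 0.997 for these 3 genes.

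The 5 members with roles in the response to DNA damage, ZNF280C, ZNF281, ZNF384, ZNF827 and ZNF830, gave 0 calls at 5 h and 0 at 24 h. At 24 h all 5 had positive values, from 0.05 ± 0.16 for ZNF827, which is found at telomeres kept by recombination, to 0.24 ± 0.10 for ZNF384, with adjusted p-values of 0.16 to 0.87. ZNF384 had 35.1, 41.5 and 44.9 CPM in irradiated libraries at 24 h, against 34.1, 33.9 and 35.0 CPM in untreated ones. In the 5 h fit with the replicate block, ZNF384 passed as higher, as given above, and so did ZNF280C, at 0.20 ± 0.06 (adjusted p = 0.035). That fit called 10.6% of all genes higher.

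The 4 members known from blood cells also gave 0 calls at either time in the 12-library fit. ZNF683 (Hobit), a factor of tissue-resident and cytotoxic lymphocytes, had a log2 fold change of 0.33 ± 0.24 at 5 h and -0.20 ± 0.24 at 24 h. ZNF366 (DC-SCRIPT), of dendritic cells, was at -0.22 ± 0.27 and -0.27 ± 0.27. The summed dendritic cell markers stood at 157 to 200 CPM in irradiated and 191 to 237 CPM in untreated libraries at 24 h. At 5 h they stood at 77.0 to 89.8 CPM in irradiated and 106 to 111 CPM in untreated libraries. FLT3 made up most of the 24 h sum, with a mean of 170 CPM in irradiated and 178 CPM in untreated libraries. The log2 fold changes at 24 h were -4.29 for CLEC9A, -3.93 for PLD4, -0.07 for FLT3 and 0.71 for BATF3. The part of these markers in the ZNF366 value was not tested. ZNF318, which B cells need to make IgD, had 106 to 124 CPM in irradiated and 108 to 122 CPM in untreated libraries at 24 h, with a log2 fold change of 0.02 ± 0.12, beside the lower B cell markers given above, and in the 5 h fit with the replicate block it passed as higher at 0.16 ± 0.05 (adjusted p = 0.024). ZNF521, which holds back B cell differentiation, was at 0.02 ± 0.47 and 0.33 ± 0.43.

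Of 10 members that act in chromatin complexes, ZNF274 was called higher and ZNF451 lower at 24 h. That is 20% of this short list, where 11% of all genes tested were called. With the 6 libraries of 24 h alone 0 were called. At 5 h 0 were called in the 12-library fit. With the replicate block ZNF274 at 0.16 ± 0.05 (adjusted p = 0.027) and ZNF687, a partner of ZMYND8, at 0.20 ± 0.05 (adjusted p = 0.012) passed as higher. That fit called 10.6% of all genes higher. Of 7 with roles in RNA processing or ribosomes, 0 were called at either time in the 12-library fit. ZNF326 was nearest at 24 h, with 0.32 ± 0.11 (adjusted p = 0.083), and passed there with upper quartile scaling (adjusted p = 0.025) and with a filter of 1 CPM in 3 libraries (adjusted p = 0.034).

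Of 21 corepressor genes that work with KRAB proteins, 0 were called at 5 h in the 12-library fit, and at 24 h 1 was higher and 2 were lower. That is 14.3% of the list at 24 h, where 11% of all genes tested were called. With the replicate block at 5 h 1 was higher and 2 were lower, and with the 6 libraries of 24 h alone 0 were called. TRIM28, the corepressor itself, averaged 355 ± 97 CPM in irradiated and 338 ± 58 CPM in untreated libraries at 24 h (SD, n = 3 each), a log2 fold change of 0.07 (adjusted p = 0.83). SETDB1 averaged 125 ± 15 CPM in irradiated and 113 ± 13 CPM in untreated libraries (adjusted p = 0.46). ATF7IP, which keeps SETDB1 in the nucleus, was the gene called higher, at 0.29 (adjusted p = 0.032). FAM208A, the TASOR subunit of the HUSH silencing complex, was lower at -0.35 (adjusted p = 0.011), as was UHRF1, which maintains DNA methylation at replication, at -0.80 (adjusted p = 0.022). Among 69 other genes of C2H2 factors tested (ZFP, ZSCAN and ZKSCAN, ZBTB and KLF), 0 were called at 5 h in the 12-library fit, and 1 higher and 4 lower at 24 h, or 7.25% of the list against the same 11% of all genes. With the replicate block at 5 h 5 were higher and 1 was lower, of 66 tested, and with the 6 libraries of 24 h alone 0 were higher and 1 was lower, of 67 tested.

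Over time ZNF genes changed widely. In untreated blood 40 of the 138 were higher and 40 lower at 24 h than at 5 h, where 29.9% of all genes were called higher and 28.3% lower. In irradiated blood 33 were higher and 49 lower, where 32% of all genes were called higher and 30.9% lower. In all, 58% of members were called over time in untreated and 59.4% in irradiated blood, against 58.2% and 62.8% of all genes. Changes of at least 2-fold, called or not, were seen in 13.8% of members and 32.9% of all genes in untreated blood, and in 17.4% and 36.5% in irradiated blood. Members had to reach 600 reads, which the other genes did not, and no test was made of this difference.

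The split between higher and lower depended on the scaling. In untreated blood it was 79 higher and 25 lower with library totals only, 60 and 31 with upper quartile scaling and 39 and 41 with DESeq2. In irradiated blood it was 64 and 29, 53 and 37, and 33 and 51 under the same 3 settings. Over all genes these settings gave 7980 higher and 2276 lower, 6246 and 3236, and 4591 and 4444 in untreated blood. In irradiated blood they gave 7623 and 2773, 6755 and 3364, and 5021 and 4774. The median log2 fold change of all genes moved with the split. It was 0.21 in the untreated comparison as reported, 0.67 with library totals and 0.45 with upper quartile scaling. The median ZNF gene minus the median of all genes was -0.21 in untreated and -0.25 in irradiated blood under each of the 3 edgeR scalings, which shift all genes nearly alike by construction. With DESeq2 it was -0.28 and -0.33.

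Markers of cell types moved over time as well. Summed neutrophil markers came to 44.1 to 124 CPM in irradiated libraries at 24 h, against 216 to 235 CPM at 5 h, and to 30.4 to 54.6 CPM in untreated libraries at 24 h, against 144 to 171 CPM at 5 h. Of 7 neutrophil markers 4 were called lower in irradiated and 5 in untreated blood. Of 9 B cell markers 9 were called lower in irradiated blood, and 4 higher and 0 lower in untreated blood. Their part in the ZNF changes over time was not tested.

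The time changes of ZNF genes were compared between the treatments, which share no library. Of the 138 members 31 were called higher in both, 40 lower in both and 0 in opposite directions, 9 were called in untreated blood alone, 11 in irradiated blood alone and 47 in neither. The log2 changes correlated across the members with a Pearson's r of 0.95 and a Spearman's rho of 0.95, and 124 members had the same sign. Over all genes tested r was 0.90 and rho 0.91. Here too the read threshold applied to members only, and the difference in correlation was not tested. A call in one treatment alone does not show that the treatments differed. The gene farthest from equality was ZNF697.

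**Figure D3:**
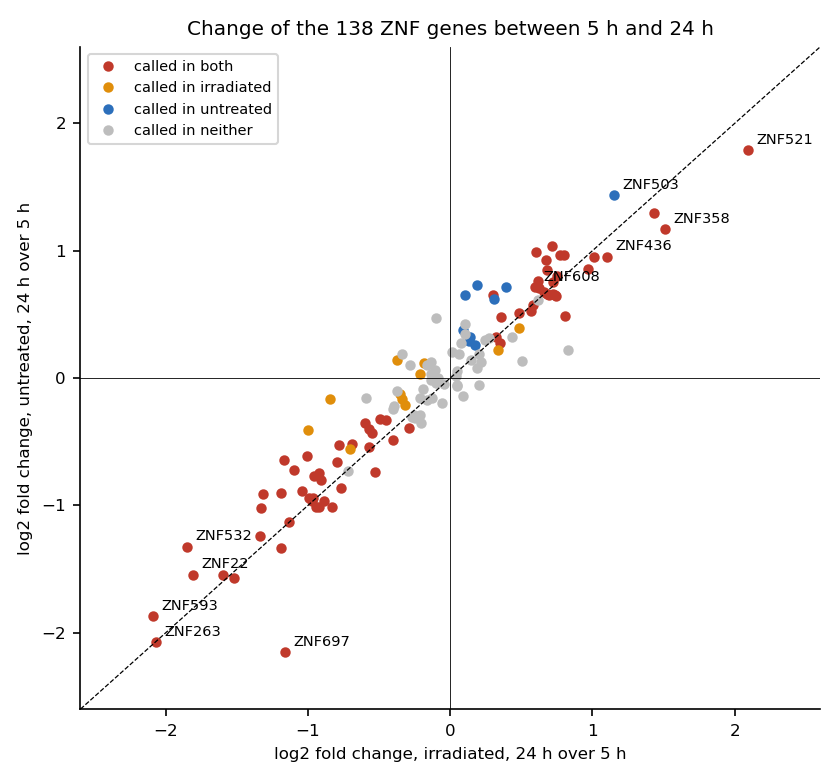
Log2 fold change of each of the 138 ZNF genes at 24 h over 5 h, in irradiated blood (x axis) and in untreated blood (y axis), with the dashed line of equal change. Colours give the calls; most points follow the line, with 71 called in the same direction in both treatments, and ZNF697 lies farthest from it.

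The largest falls over time were those of ZNF593, ZNF263, ZNF697 and ZNF532. ZNF263 had 71.9, 77.0 and 81.7 CPM in irradiated libraries at 24 h, against 321, 339 and 308 CPM in irradiated libraries at 5 h. In untreated blood it had 66.2, 68.3 and 70.2 CPM at 24 h, against 291, 290 and 280 CPM at 5 h. No 24 h library came near any 5 h library, and the log2 fold change was -2.07 ± 0.08 in both treatments (adjusted p = 2.6e-09 irradiated, 3.1e-09 untreated).

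ZNF593, whose yeast counterpart helps export the large ribosomal subunit, had 5.00, 5.15 and 8.73 CPM in irradiated libraries at 24 h, against 25.3, 28.6 and 26.1 CPM at 5 h. In untreated blood it had 6.15, 7.08 and 9.01 CPM at 24 h, against 28.2, 26.6 and 26.8 CPM at 5 h. The log2 fold changes were -2.09 ± 0.20 irradiated (adjusted p = 1.7e-06) and -1.87 ± 0.19 untreated (adjusted p = 3.8e-06). ZNF532, a partner of the ZMYND8 chromatin reader, was lower at -1.85 ± 0.21 irradiated and -1.32 ± 0.20 untreated. ZNF22 was at -1.81 ± 0.09 and -1.54 ± 0.08, and ZNF200 at -1.60 ± 0.09 and -1.55 ± 0.09. In untreated blood ZNF697 fell most, at -2.15 ± 0.22, and ZNF326 and ZNF275 were at -1.57 ± 0.11 and -1.34 ± 0.16. All of these were called, with adjusted p-values of 0.00011 or less.

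ZNF521 had the largest rise. It had 14.4, 29.5 and 21.8 CPM in irradiated libraries at 24 h, against 8.10, 4.33 and 2.92 CPM at 5 h. In untreated blood it had 21.1, 14.8 and 16.4 CPM at 24 h, against 8.95, 4.20 and 2.08 CPM at 5 h. The libraries of one group lay far apart, and yet no 24 h library lay as low as any 5 h one, with log2 fold changes of 2.09 ± 0.46 irradiated (adjusted p = 0.0019) and 1.79 ± 0.46 untreated (adjusted p = 0.0052).

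ZNF358 rose by 1.51 ± 0.33 in irradiated and 1.17 ± 0.32 in untreated blood, from a level under 4 CPM in every library. ZNF319 rose by 1.43 ± 0.36 and 1.29 ± 0.37, with an adjusted p of 0.051 in untreated blood without untreated 24 h replicate 3. ZNF436 was at 1.10 ± 0.09 and 0.95 in the same order, and ZNF76, a relative of the promoter factor ZNF143, at 1.01 ± 0.10 and 0.95. In untreated blood the other large rises were those of ZNF503 at 1.44 ± 0.58 (adjusted p = 0.049, lost without any one of 9 of the 12 libraries), ZNF365 at 1.04 ± 0.20, ZNF354C at 0.99 ± 0.15, ZNF688 at 0.97 ± 0.22 and ZNF691 at 0.96 ± 0.14. ZNF354C was thus higher at 24 h than at 5 h in untreated blood and lower in irradiated than in untreated blood at 24 h.

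Of the 10 chromatin members 7 were lower and 0 higher in irradiated blood, and 6 lower and 0 higher in untreated blood. Over all genes tested 30.9% were lower and 32% higher in irradiated blood, and 28.3% lower and 29.9% higher in untreated blood, and the lists were not tested against this background. With library totals only, the chromatin members split into 4 lower and 1 higher in irradiated blood, and 5 lower and 4 higher in untreated blood. The counts over all genes under that scaling are given above. ZNF592, another partner of ZMYND8, was at -0.96 ± 0.09 irradiated and -0.94 ± 0.09 untreated, and ZNF217, a corepressor subunit, at -0.89 ± 0.12 and -0.96 ± 0.12. Of the 7 RNA and ribosome members 4 were lower and 1 higher in irradiated blood, and 4 lower and 2 higher in untreated blood. ZNF207 had 228 to 238 CPM in irradiated libraries at 24 h, against 441 to 487 CPM at 5 h, a log2 fold change of -0.99 ± 0.08. ZNF106, a protein of RNA splicing, rose by 0.72 ± 0.10 irradiated and 0.66 ± 0.10 untreated. ZNF281, a factor recruited to DNA breaks, was lower in both treatments, at -0.77 ± 0.08 irradiated and -0.87 ± 0.08 untreated, and so was ZNF384, at -0.97 ± 0.10 in each.

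The p53-linked ZNF148 had log2 changes of -0.09 ± 0.07 irradiated and 0.00 ± 0.07 untreated, and its direction turned with scaling, to 0.31 and 0.46 with library totals only. Of the 21 corepressor genes 3 were higher and 12 lower in irradiated blood, and 2 higher and 11 lower in untreated blood. Of the 69 other C2H2 genes 17 were higher and 24 lower in irradiated blood, and 20 higher and 19 lower in untreated blood. With library totals only, the corepressor genes split into 7 higher and 3 lower in irradiated blood, and 11 higher and 4 lower in untreated blood. The other C2H2 genes then split into 33 higher and 11 lower in irradiated blood, and 39 higher and 4 lower in untreated blood. The background for the counts as reported is that given above. With library totals only, 7623 of all 15200 genes were called higher and 2773 lower in irradiated blood. In untreated blood 7980 were called higher and 2276 lower.

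**Figure D4:**
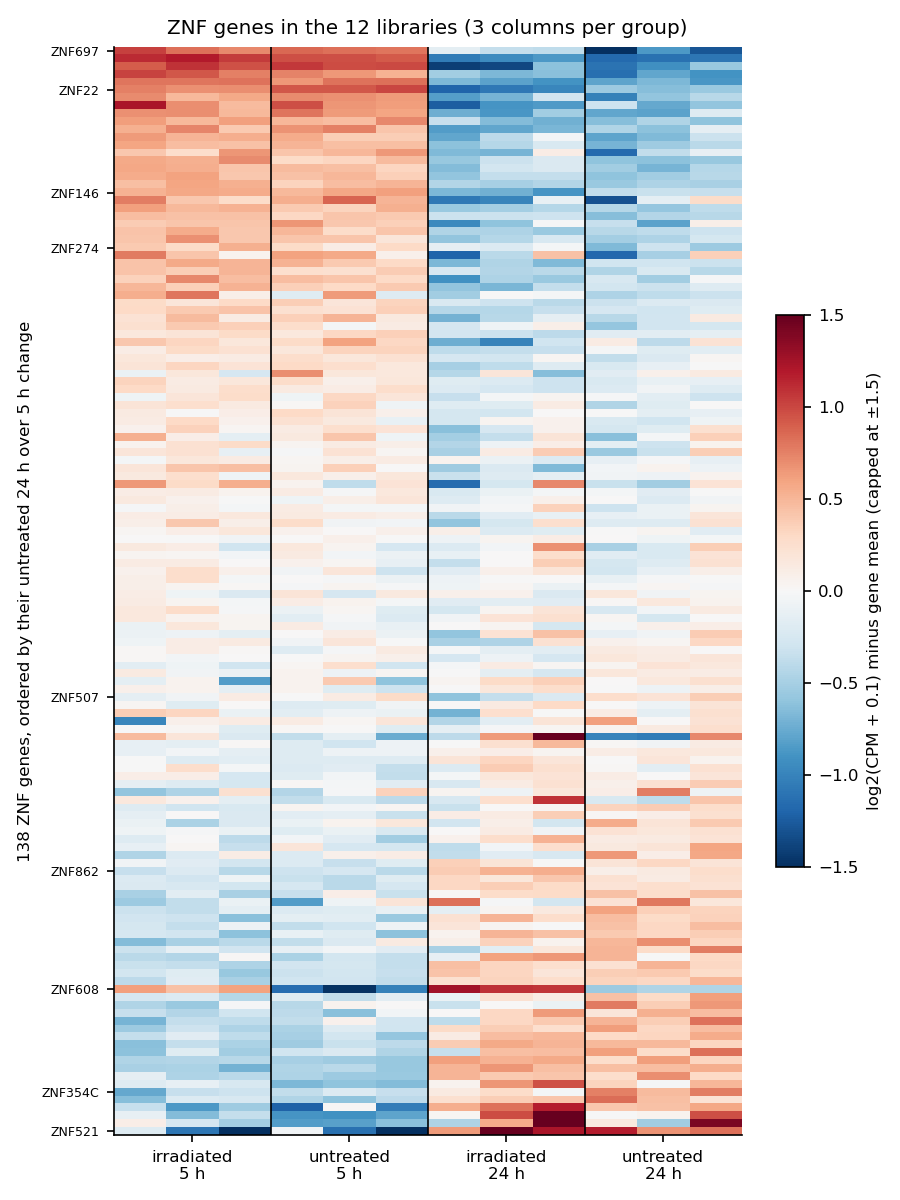
Each row is 1 of the 138 ZNF genes and each column 1 library (3 per group), with colour for log2(CPM + 0.1) minus the gene's mean over the 12 libraries, capped at 1.5 either way. Rows run from the largest fall (top) to the largest rise (bottom) in untreated blood. The median absolute log2 fold change of the members was 0.49 over time in untreated blood, and 0.17 between irradiated and untreated blood at 24 h. ZNF608 and ZNF507 are among the rows where irradiated and untreated blood at 24 h differ more than untreated blood did over time.

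ZNF genes in mammals often lie in clusters, copied in place from one another. In this assembly the members lay on 58 scaffolds, 104 of them with no other member within 200 kb between starts, and 34 in 11 clusters of 2 or more. These clusters were set by distance alone, and whether their members are copies of one another was not analysed. Between ZNF593 and ZNF683 on scaffold 34, for instance, lie 8 other genes. Genes of a cluster did not all move together. In untreated blood over time 4 clusters held calls in both directions, 6 in 1 direction only and 1 had none. Over all genes tested 29.9% were called higher and 28.3% lower in that comparison. The clusters were not tested against this background, and the split between higher and lower depended on the scaling, as given above.

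The largest cluster held 7 members on scaffold 91, ZNF746, ZNF777, ZNF783, ZNF212, ZNF282, ZNF398 and ZNF786. In untreated blood 4 of them were lower and 0 higher, from -1.02 for ZNF746 to -0.51 for ZNF398, and ZNF212 was at 0.43 (adjusted p = 0.068). On scaffold 53 ZNF597, ZNF174, ZNF263 and ZNF200 lie together. In the same comparison ZNF597 was higher by 0.51 (adjusted p = 0.0019), ZNF174 was at -0.01, and ZNF263 and ZNF200 were lower at -2.07 and -1.55. On scaffold 4, ZNF329 and ZNF274 were lower, at -0.40 and -0.74, while the adjoining ZNF8 was higher by 0.85 (adjusted p = 0.00015).

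At 24 h ZNF382 and ZNF146, neighbours on scaffold 141 with starts 145 kb apart, were both lower in irradiated blood, while over time in untreated blood ZNF382 rose and ZNF146 fell. Both neighbours of ZNF274, ZNF329 and ZNF8, were not called at 24 h (adjusted p = 0.096 and 0.92). The labels and file headers do not say how reads matching several near-identical ZNF genes were counted, nor whether strand was used, and values of close relatives are uncertain to that extent.

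**Figure D5:**
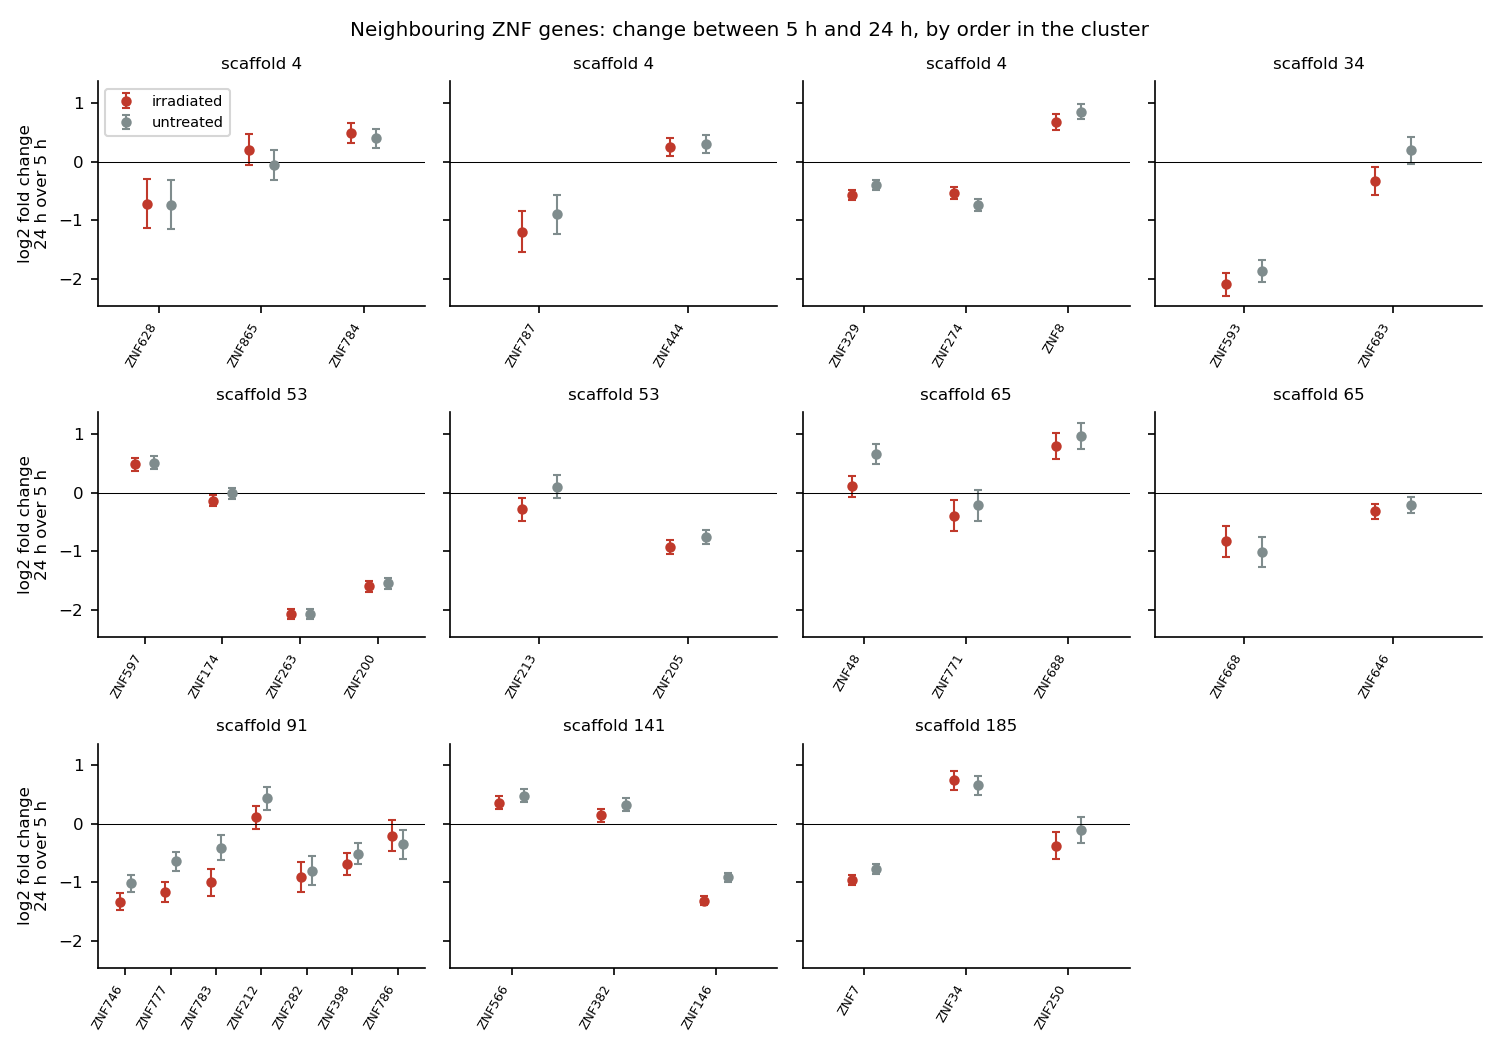
Log2 fold change at 24 h over 5 h with its SE for the 34 ZNF genes in 11 clusters, in order along each scaffold, red for irradiated and grey for untreated blood. Values of neighbours differ within most clusters, as on scaffold 53 (ZNF597 to ZNF200), while irradiated and untreated values of 1 gene lie close.

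The authors' deposited table gives its own log2 ratio for each gene and time, coded as untreated over irradiated, the reverse of the direction used above. For ZNF608 the authors' deposited table has -1.73 at 5 h and -1.68 at 24 h. For ZNF697 the authors' deposited table has -1.04 at 24 h, and for ZNF22 it has 0.46.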

How the data were processed

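RNA came from blood and was made into libraries with a stranded kit after removal of ribosomal RNA, per the labels' protocols. The authors deposited, per the file headers, raw read counts per gene and library on L_africana_Jul_2009, with exon lengths, FPKM values, regularized log2 values, a log2 ratio and a score made from adjusted p-values in the same tables. Only the deposited counts, exon lengths and log2 ratio were used here; the deposited FPKM values and scores were not. The labels and file headers name no aligner, counting tool or strand setting. Gene starts in the files count from 0 and were moved by 1.

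All 12 libraries (18022475 to 38138163 counts; a median of 378 to 798 counts per member and library) were fitted together in R 4.3.3 with edgeR 4.0.16 (TMM scaling, filterByExpr, quasi-likelihood test, Benjamini-Hochberg adjustment below 0.05), with 1 term per group. Of 16406 genes 15200 passed the filter, all 138 members among them. CPM and RPKM use TMM-scaled library sizes. Alternatives were DESeq2 1.42.0, other scalings and filters, fits to 6 libraries, replicate blocks and leaving out each library. Counts of the gene lists under other scalings and in the 6-library fits were chosen after seeing the data. The fit was tested on simulated data. No 2 libraries of a group agreed within sampling noise (chi-square per degree of freedom 17.4 to 88.8).

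The labels do not say that replicate numbers pair libraries. Deviations from the group mean correlated between equally numbered irradiated and untreated libraries by 0.37, 0.33 and 0.57 at 5 h, where the numbers were taken to pair, and by 0.12, -0.40 and 0.65 at 24 h, where they were not.

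The members and gene lists were chosen with earlier results of these data known. Named were the members called with the largest changes whose libraries did not overlap in CPM (8 each way, 5 for irradiated blood over time), else those with the smallest p-values, the p53, DNA damage and blood lists whole, up to 4 members of the chromatin and RNA lists, the 5 highest levels and the genes nearest the threshold. ZNF146 at 24 h was added because it was called. Of 138 member symbols 129 are in the RefSeq gene table. Protein features and sequences were not analysed here. Figures were drawn with matplotlib.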

Additional observations from a re-analysis of the deposited data

How the results depend on the processing

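ZNF608 kept its direction and its call at both times under every alternative run. With the replicate block on the 6 libraries of 5 h, 14 members were higher and 5 lower, in place of 1 and 0. At 24 h the count of 4 higher became 2 with no low-count filter, 1 with 6 libraries, 2 with 6 libraries and the replicate block, and 2 to 3 when 1 library was left out. The count of 10 lower became 17 with library totals only, 3 with 6 libraries, 1 with 6 libraries and the replicate block, and 4 to 10 when 1 library was left out. For the difference of the effects, leaving out 1 library gave 0 to 1 members with a more positive effect at 24 h. Over time, library totals only gave 79 higher and 25 lower in untreated blood, and 64 higher and 29 lower in irradiated blood, where upper quartile scaling gave 53 higher. The counts over all genes under these scalings are given above. Turned round were ZNF148 in untreated blood (log2 fold change 0.46 with library totals, 0.23 with upper quartile scaling), ZNF148 in irradiated blood (0.31 and 0.19) and ZNF706 in untreated blood (0.37 with library totals). Library totals differ from the other scalings by construction; the cause of the other changes was not tested. With the replicate block in the 12-library fit, ZNF274 (adjusted p = 0.052) and ZNF32 (adjusted p = 0.061) at 24 h and ZNF318 over time in untreated blood (adjusted p = 0.054) lost their calls. The check given did not settle whether replicate numbers pair libraries at 24 h, as its correlations there were mixed. The median SE of a member's log2 fold change between irradiated and untreated blood was 0.13 at each time. With 3 libraries per group, changes larger than this also went uncalled. One was that of ZNF326 at 24 h (log2 fold change 0.32, adjusted p = 0.083 in the 12-library fit). A member that was not called is therefore not shown to be unchanged.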
